A study of Mus musculus with 3 samples.

Results

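The insulin-like growth factor (IGF) binding proteins are a family of secreted proteins that hold IGF ligands in blood and tissue fluid, and their genes Igfbp1 to Igfbp7 were followed here in mouse liver. Members were the 7 genes with these symbols, among 49492 entries of the deposited tables, and all 7 were found. Liver RNA was sequenced from mice of the outbred strain CD-1. The 12-week and 8-week groups took zinc oxide (ZnO) nanoparticles, dispersed by ultrasound, orally every day for 12 or 8 weeks at a daily dose of 25 mg per kg of body weight. The control group took an equal amount of phosphate-buffered saline (PBS). Each group is 1 library, so no difference below has a replicate check, no p-value is given, and a difference between libraries cannot be told apart from one between animals. The sex and starting age of the mice, the number of animals behind a library and the age of the control animals at sampling are not given in the sources used here. The series is titled for insulin resistance caused by the particles.

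Liver is the main source of circulating IGF1, and most of it travels bound to Igfbp3 or Igfbp5 and to a further protein, the acid-labile subunit Igfals. Igfbp1, Igfbp2 and Igfbp4 are made by hepatocytes; Igfbp1 is known for the fast repression of its transcription by insulin, acting through FOXO1, and Igfbp4 for being cut by the protease Pappa. Igfbp3 comes largely from non-hepatocyte cells in rat liver. Igfbp5 is abundant in skeletal muscle and connective tissue, Igfbp6 prefers IGF2 as its ligand, and Igfbp7 is a distant relative with low affinity for IGFs that endothelial cells secrete.

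The 7 genes lie at 5 places in the genome (positions in the deposited tables, the same as in GENCODE M21 on GRCm38, which is mm10). Igfbp1 (chr11:7197782-7202546, plus strand) and Igfbp3 (chr11:7206086-7213923, minus strand) stand tail to tail with 3539 bases between them. Igfbp2 (chr1:72824503-72852474, plus strand) and Igfbp5 (chr1:72857932-72874884, minus strand) stand the same way with 5457 bases between them. Igfbp4 (chr11:99041244-99054392, plus strand), Igfbp6 (chr15:102144362-102149511, plus strand) and Igfbp7 (chr5:77349240-77408041, minus strand) stand apart from the other members. All 7 are protein-coding. Igfbp7 overlaps the opposite-strand genes Gm43261 and Polr2b, with 85 exonic bases shared in all. Since no source used here states whether counting used strand, a few of its reads may belong to one of these genes. The other 6 overlap no listed gene.

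The promoters of 3 genes are shown because their genes carry the results below: Igfbp1 and Igfbp2 stood apart from the control in opposite directions at 12 weeks, and Igfbp4 had the highest CPM. Each is the 300-base RefSeq window around the transcription start on GRCm38.p6 (for Igfbp2 the first of 2), read 5′ to 3′ on the strand of its gene. Capitals mark CAAAACA and CAAAATA, which together form the insulin response element, the GC box GGGCGG and the TATA box TATAAA, each searched on both strands.
Igfbp1, chr11:7197537-7197836, plus strand: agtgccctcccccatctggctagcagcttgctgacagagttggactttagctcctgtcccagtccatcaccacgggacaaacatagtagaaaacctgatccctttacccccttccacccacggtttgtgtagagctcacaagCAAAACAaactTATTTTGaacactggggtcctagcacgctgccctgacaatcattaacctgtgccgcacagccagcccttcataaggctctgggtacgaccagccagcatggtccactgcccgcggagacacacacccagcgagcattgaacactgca
Igfbp2, chr1:72824230-72824529, plus strand: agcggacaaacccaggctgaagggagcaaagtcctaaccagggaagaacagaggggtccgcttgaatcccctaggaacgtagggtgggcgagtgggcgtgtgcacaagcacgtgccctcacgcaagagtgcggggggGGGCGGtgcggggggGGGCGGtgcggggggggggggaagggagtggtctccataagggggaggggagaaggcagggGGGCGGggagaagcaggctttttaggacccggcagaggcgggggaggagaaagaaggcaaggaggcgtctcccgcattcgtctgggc
Igfbp4, chr11:99040994-99041293, plus strand: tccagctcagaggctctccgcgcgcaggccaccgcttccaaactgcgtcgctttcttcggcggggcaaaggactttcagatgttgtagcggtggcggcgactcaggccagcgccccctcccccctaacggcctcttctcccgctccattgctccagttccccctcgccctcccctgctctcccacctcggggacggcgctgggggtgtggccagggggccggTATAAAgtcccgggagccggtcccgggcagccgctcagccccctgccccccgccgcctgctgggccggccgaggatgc
In the Igfbp1 window, CAAAACA began at position -108 from the start and the reverse complement of CAAAATA at -97, so that both parts faced each other across 4 bases. The orientation and 4-base gap searched for were those of the Igfbp1 window, so the match there was fixed in advance. Of 32851 RefSeq promoter windows of the same length, no other held this arrangement. CAAAACA by itself was found in 6.28% and CAAAATA by itself in 4.36% of them. The Igfbp2 window held 3 GC boxes, a motif found in 35.7% of windows. Of its bases, 67.0% were G or C, beside a median of 52.7% over all windows. The Igfbp3, Igfbp4 and Igfbp7 windows were higher, at 71.7%, 71.3% and 73.3%, and that of Igfbp7 held 4 GC boxes. The second Igfbp2 window held 0 GC boxes, at 57.3%. The Igfbp4 window held 1 TATA box, at -28, against 13.6% of windows with a match. No window of the 7 members held TTCNNNGAA, the form of a STAT5 site, which was found in 8.30% of windows. The matches are letters in a window and no measure of binding.

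Estimated counts, the unit of the deposited tables, summed to 13263328 in the 12-week library, 14258915 in the 8-week library and 13615143 in the control. Levels are given as CPM, counts scaled to library size after TMM scaling of library sizes, and levels of different genes are set side by side only as CPM per kilobase of the gene length in the deposited tables. Intervals in parentheses are exact 95% intervals that cover counting error only, since each group is 1 library. Reads copied by amplification and lacking molecular identifiers may stem from the same molecule, so the intervals may be too narrow even for counting error. All 10 hepatocyte markers were found in every library. They summed to 67385.6 CPM at 12 weeks, 69334.6 CPM at 8 weeks and 61366.3 CPM in the control. Their median log2 ratios against the control were 0.44 at 12 weeks and 0.18 at 8 weeks. The 12 Kupffer cell markers, of the resident macrophages, summed to 304.8 CPM at 12 weeks, 404.6 CPM at 8 weeks and 96.7 CPM in the control, with 0 at 0 counts. Of these, 11 of 12 were called at least 2-fold higher at 12 weeks, beside 3.11% of all kept genes. At 8 weeks 12 of 12 were, beside 4.15%. These markers were chosen with earlier results of these data known, so the counts are no independent result. The 10 skeletal muscle markers had 18 counts at 12 weeks, 2700 at 8 weeks and 26 in the control, which sets the 8-week library apart. Most of them reached the 1 CPM minimum only in that library, so no count of called muscle markers is read here. In bulk tissue, fewer cells of a type and less RNA per cell cannot be told apart.

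The family as a whole had a similar total of reads in the 3 libraries while its makeup differed. The 7 genes together had 2127 CPM at 12 weeks, 2044 CPM at 8 weeks and 2121 CPM in the control. Divided by gene length, the sums were 700.5, 667.8 and 764.6 CPM per kilobase in the same order, highest in the control. Igfbp2, one of the main binding proteins of hepatocytes, was lower in both ZnO libraries than in the control, and Igfbp1 and Igfbp4 were higher in both. Per kilobase, Igfbp2 supplied 29.8% of the family at 12 weeks, 31.2% at 8 weeks and 48.4% in the control. Igfbp4 supplied 49.2% at 12 weeks, 49.6% at 8 weeks and 37.9% in the control, and Igfbp1 supplied 12.6%, 9.22% and 6.78% in the same order of libraries. The leading member was therefore Igfbp4 in both ZnO libraries and Igfbp2 in the control.

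**Figure D1:**
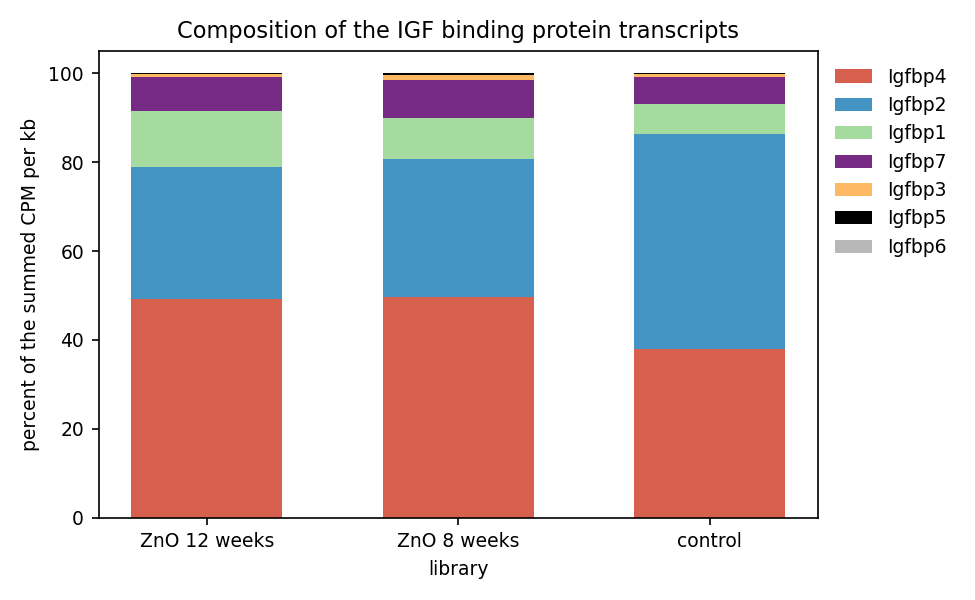
Share of each IGF binding protein gene (colours) in the summed CPM per kilobase of the 7 genes (y axis, percent), for the 12-week, 8-week and control libraries (1 library each, bars). Igfbp2 takes 29.8% and 31.2% in the ZnO libraries against 48.4% in the control, and Igfbp4 49.2% and 49.6% against 37.9%.

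The order of the levels was the same below the top pair in all 3 libraries. At 12 weeks it ran from Igfbp4 (344 CPM per kilobase, 340 to 349) and Igfbp2 (209, 203 to 215) through Igfbp1 (87.9, 83.9 to 92.1), Igfbp7 (53.3, 49.8 to 57.0), Igfbp3 (4.54, 3.91 to 5.23) and Igfbp5 (1.21, 0.978 to 1.47) to Igfbp6 (0.204, 0.0420 to 0.595). In the control, Igfbp2 stood at 370 CPM per kilobase (362 to 378) and Igfbp4 at 290 (286 to 294). The counting intervals of neighbours in the order did not overlap at 12 weeks. Those of Igfbp1 and Igfbp7 did overlap at 8 weeks, at 61.6 (58.4 to 65.0) and 57.1 (53.6 to 60.8) CPM per kilobase, and in the control, at 51.9 (48.8 to 55.1) and 46.7 (43.4 to 50.1). The levels of Igfbp3, Igfbp5 and Igfbp6 stood far below those of the other members in every library. The ratio of Igfbp2 to Igfbp4 per kilobase was 0.607 (0.589 to 0.626) at 12 weeks, 0.629 (0.611 to 0.648) at 8 weeks and 1.28 (1.24 to 1.31) in the control. In CPM without division by length, Igfbp4 led in the control as well.

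**Figure D2:**
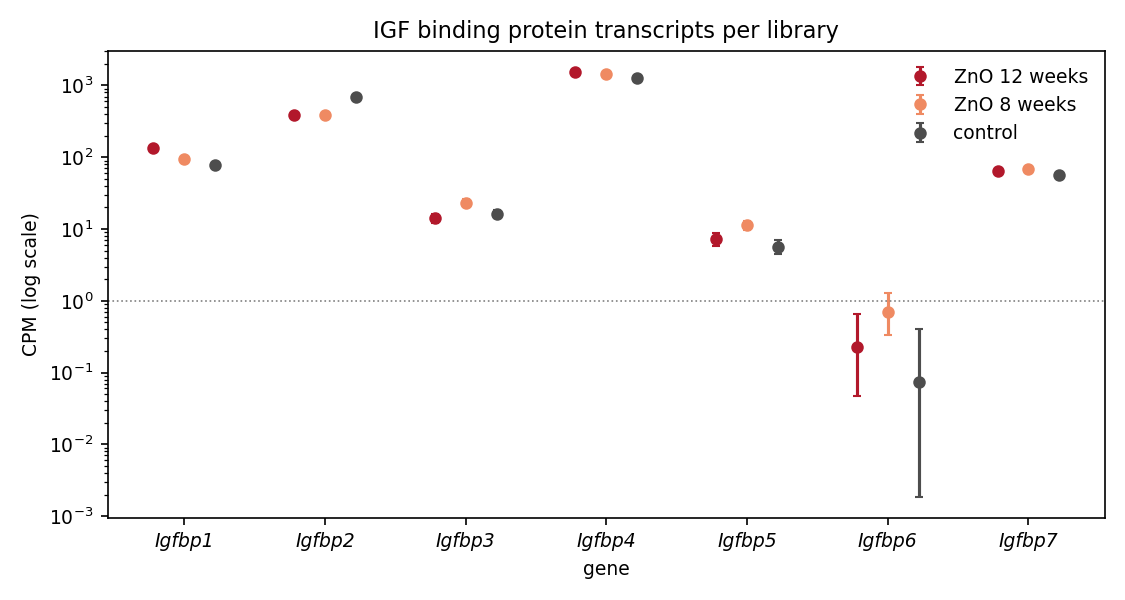
CPM (y axis, log scale) of the 7 genes (x axis) in the 12-week, 8-week and control libraries, 1 point per library with its exact 95% counting interval. Igfbp2 is highest in the control at 683 CPM, Igfbp1 is highest at 12 weeks at 134 CPM, and Igfbp6 lies under the dotted line at 1 CPM, the minimum for a gene to be kept.

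Among the binding proteins of hepatocytes, Igfbp2 had 5113 estimated counts at 12 weeks and 5512 at 8 weeks, against 9269.5 in the control. That is 386, 385 and 683 CPM in the same order, so both ZnO libraries lay well under the control and beside each other. The change of each gene is given as the log2 ratio of CPM + 1, which was -0.82 at 12 weeks and -0.83 at 8 weeks against the control. The ratio of counts was 0.565 (0.546 to 0.585) at 12 weeks against control and 0.563 (0.545 to 0.582) at 8 weeks against control. Between 12 and 8 weeks it was 1.00 (0.966 to 1.04). The kept genes are the 14585 that reached 1 CPM in any library; of these, 2.38% had a log2 ratio at or under that of Igfbp2 at 12 weeks and 3.52% at 8 weeks. The 2 comparisons with the control share that library, and neither is independent of the other.

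Igfbp1, the binding protein that insulin represses, had 1776.5 estimated counts at 12 weeks and 1345.5 at 8 weeks, against 1073 in the control. These are 134, 93.9 and 79.1 CPM, highest at 12 weeks and intermediate at 8 weeks. Its log2 ratio was 0.75 at 12 weeks and 0.25 at 8 weeks against the control, and 0.51 between 12 and 8 weeks. The count ratios were 1.70 (1.57 to 1.83), 1.19 (1.10 to 1.29) and 1.43 (1.33 to 1.53), so each of the 3 intervals excluded 1. Of the kept genes, 5.77% had a log2 ratio at or above that of Igfbp1 at 12 weeks, 25.7% at 8 weeks and 7.4% between 12 and 8 weeks. Igfbp2 exceeded Igfbp1 per kilobase 2.38-fold (2.25 to 2.51) at 12 weeks, 3.38-fold (3.18 to 3.59) at 8 weeks and 7.13-fold (6.70 to 7.61) in the control.

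Igfbp4 had the most counts of the family, with 20137.5 at 12 weeks, 20935.83 at 8 weeks and 17374.5 in the control. Its levels were 1520.5 CPM at 12 weeks, 1461 CPM at 8 weeks and 1280.5 CPM in the control, so that both ZnO libraries lay slightly above the control. The log2 ratios were 0.25 at 12 weeks and 0.19 at 8 weeks, with count ratios of 1.19 (1.16 to 1.21) and 1.14 (1.12 to 1.16). Of the kept genes, 24.4% and 29.7% stood at or above these values, so a difference of this size was common between the libraries. By the distance of its pair of log2 ratios against the control, over 3 libraries, the genes most like Igfbp4 were Gosr2 (0.00664), Sf3b1 (0.0110) and Myo10 (0.0131), and 267 of 7969 compared genes lay within 0.1 of it.

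Igfbp3, the main carrier of IGF1 in blood, had 188 counts at 12 weeks and 332 at 8 weeks, against 219 in the control, or 14.2, 23.2 and 16.1 CPM. The 8-week library alone was high. The log2 ratio was -0.17 at 12 weeks and 0.50 at 8 weeks against the control, with count ratios of 0.879 (0.720 to 1.07) and 1.44 (1.21 to 1.71). Between 12 and 8 weeks it was -0.67, a count ratio of 0.613 (0.509 to 0.735), at or under which lay 3.42% of kept genes. The Kupffer cell markers given above were also highest in the 8-week library, and their part in the Igfbp3 value was not tested. Its tail-to-tail neighbour Igfbp1 thus stood higher at 12 than at 8 weeks, while Igfbp3 stood lower.

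Igfbp5, which binds to extracellular matrix, had 96 counts at 12 weeks and 161 at 8 weeks, against 77 in the control, or 7.25, 11.2 and 5.67 CPM. The 8-week library was again the high one. The log2 ratio was 0.31 at 12 weeks and 0.87 at 8 weeks against the control, and -0.57 between 12 and 8 weeks. The count ratio at 8 weeks was 1.98 (1.5 to 2.63), and that at 12 weeks was 1.28 (0.937 to 1.75), an interval that includes 1. Skeletal muscle markers, of a tissue rich in Igfbp5, were in the same library at 188.4 CPM, against 1.36 CPM at 12 weeks and 1.92 CPM in the control. At 12 weeks 4 of these 10 markers were at 0 counts, and in the control 6. Their part in the Igfbp5 value was not tested.

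Igfbp6 was near the limit of detection, with 3 counts at 12 weeks, 10 at 8 weeks and 1 in the control. A count of 3 corresponds to 0.227 CPM at 12 weeks, 0.209 CPM at 8 weeks and 0.221 CPM in the control, and with 0.698 CPM at most Igfbp6 was the 1 member not kept. The count ratio at 8 weeks against control was 9.47 (1.35 to 411.0), and at 12 weeks it was 3.07 (0.247 to 161), so no change at 12 weeks was detectable at this depth.

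Igfbp7, the distant relative from endothelial cells, had 852.75 estimated counts at 12 weeks and 989 at 8 weeks, against 765.5 in the control, or 64.4, 69.0 and 56.5 CPM. Both ZnO libraries lay slightly above the control. The log2 ratios were 0.19 at 12 weeks and 0.29 at 8 weeks, with count ratios of 1.14 (1.03 to 1.26) and 1.22 (1.11 to 1.35). Of the kept genes, 29.3% and 23.1% stood at or above these. The 12 liver sinusoidal endothelial markers summed to 425.3 CPM at 12 weeks, 507.6 CPM at 8 weeks and 375.4 CPM in the control, with 1 called higher at each time (Lyve1), 0 called lower, 0 at 0 counts in any library and medians of 0.26 and 0.41. The 13 stellate cell and fibroblast markers summed to 321.5, 313.5 and 265.0 CPM in the same order, with medians of 0.37 and 0.36 over 12 kept genes. Here too the part of these cells in the values of Igfbp3, Igfbp5 and Igfbp7 was not tested.

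**Figure D3:**
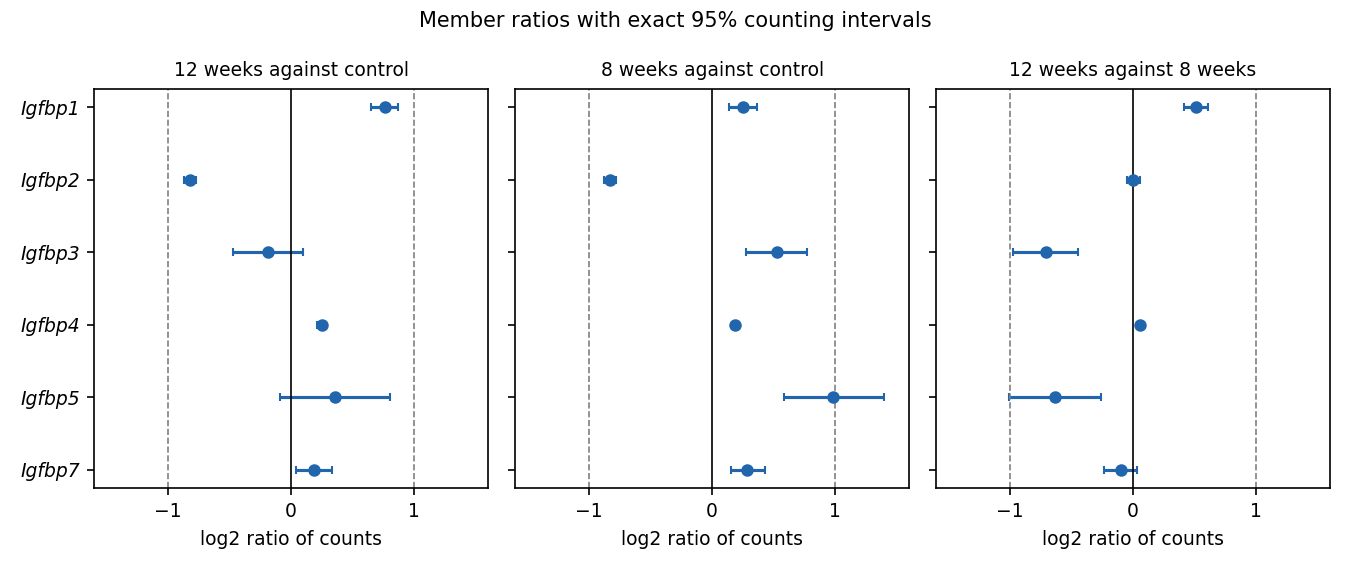
Log2 ratio of counts (x axis) of the 6 kept IGF binding protein genes (y axis) for 12 weeks against control, 8 weeks against control and 12 against 8 weeks, with exact 95% counting intervals and dashed lines at 2-fold. Igfbp2 lies at the same place left of 0 in both comparisons with the control, and no point is past a dashed line.

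At the 2-fold threshold used as a rule of size, 0 of the 6 kept members were called in any of the 3 comparisons. Of all kept genes, 4.46% were called at 12 weeks against control, 6.25% at 8 weeks against control and 2.51% between 12 and 8 weeks, so 0 of 6 is near the background. Of those called at 2-fold, more were higher than lower: 3.11% were higher and 1.34% lower at 12 weeks, and 4.15% were higher and 2.1% lower at 8 weeks. At 1.5-fold, Igfbp1 was higher and Igfbp2 lower at 12 weeks against control, where 9.28% of kept genes were higher and 6.22% lower (15.5% in all). At 8 weeks against control Igfbp5 was higher and Igfbp2 lower, where 10.6% were higher and 7.97% lower (18.6% in all). Between 12 and 8 weeks Igfbp3 alone was called, as lower, where 4.73% were lower (10.1% in both directions). Counts of 2 of 6 at either time and 1 of 6 between the times are too small to be read apart from these shares. The median log2 ratio of the 6 kept members was 0.22 at 12 weeks and 0.27 at 8 weeks against control, beside -0.01 and -0.02 for all kept genes, and -0.05 between 12 and 8 weeks, beside 0.00.

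**Figure D4:**
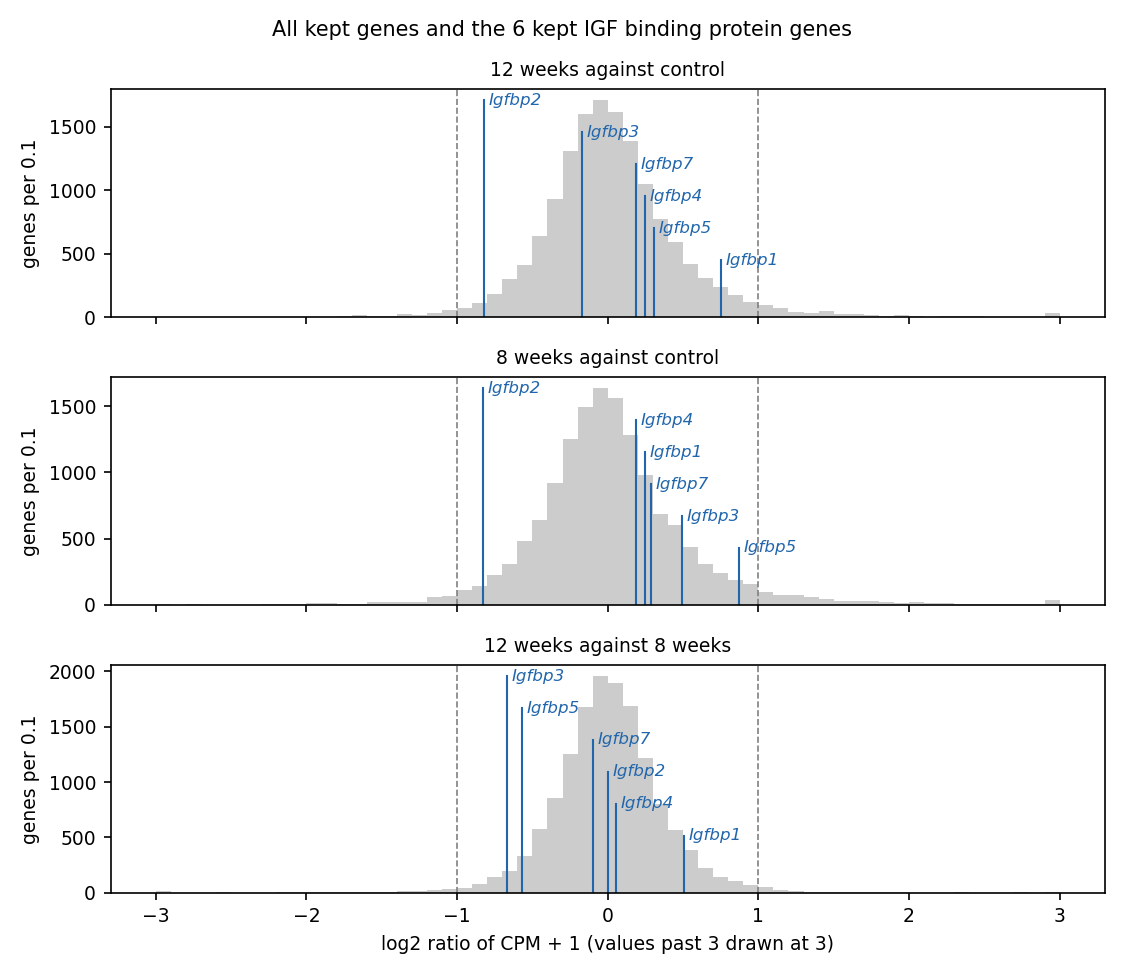
Number of kept genes (y axis) by log2 ratio of CPM + 1 (x axis, bins of 0.1), for the 3 comparisons, with the 6 kept IGF binding protein genes as blue lines whose height has no meaning and dashed lines at 2-fold. Igfbp2 lies in the left flank in both comparisons with the control, where 2.38% and 3.52% of genes are as low, and Igfbp4 and Igfbp7 lie within the bulk.

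On the scale of log2 of CPM + 1, no other gene of the IGF axis was called at 2-fold. Of 18 listed ligands, receptors, proteases and related genes, 11 were kept, and 0 were called in any comparison, with medians of 0.13 at 12 weeks and 0.14 at 8 weeks. Igf1, the growth hormone-driven ligand made by hepatocytes, was at 973.3 CPM at 12 weeks and 835.6 CPM at 8 weeks, against 631.5 CPM in the control. By counting intervals all 3 libraries were apart. The log2 ratios were 0.62 at 12 weeks and 0.40 at 8 weeks against control, and 0.22 between 12 and 8 weeks. Of the kept genes, 8.25%, 17.3% and 23.5% stood at or above these values in the same order. At 1.5-fold, Igf1 was called higher at 12 weeks against control only. Igf1 per kilobase, with its gene length in the tables, was 0.470 (0.455 to 0.486) of Igfbp2 at 12 weeks, 0.405 (0.392 to 0.418) at 8 weeks and 0.172 (0.167 to 0.178) in the control. Igf2, the fetal ligand, had 21, 23 and 27 counts at 12 weeks, at 8 weeks and in the control, and the intervals of their ratios include 1.

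Igfals, the subunit that completes the large circulating complex, had log2 ratios of 0.23 at 12 weeks and 0.41 at 8 weeks. Among the receptors, the insulin receptor Insr had 0.05 and 0.14, the IGF1 receptor Igf1r 0.31 and -0.02, and the IGF2 clearance receptor Igf2r -0.23 and 0.01 at 12 and 8 weeks. The Igfbp3 receptor Tmem219 had -0.19 and 0.15, the endocytic receptor Lrp1 0.13 and 0.01, and the lysosomal protease Ctsd 0.06 and 0.19. None of these genes was called at 1.5-fold against the control. Pappa had 2 counts at 12 weeks, 1 at 8 weeks and 1 in the control, Pappa2 had 2, 0 and 0, and the Pappa inhibitors Stc1 and Stc2 had at most 6, so their changes were not detectable at this depth. The serine protease Htra1 had 20, 12 and 17 counts, and Esm1, an endothelial proteoglycan with an IGF-binding domain, had 15 counts at 12 weeks and 16 at 8 weeks, against 5 in the control. The count ratios of Esm1 were 3.07 (1.06 to 10.8) and 3.03 (1.06 to 10.6), and with 0.1 CPM or none added in place of 1 it was the 1 gene of the list called, as higher. Igfbpl1 had 0 counts in every library, Insrr had at most 1 and Kazald1 at most 7.

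Growth hormone raises Igf1 and Igfals through STAT5, and Cish, Onecut1 and Cux2, of the list of genes tied to its signalling, were called higher in both ZnO libraries. Of the 10 listed genes, 4 were called higher at 12 weeks and 3 at 8 weeks, with 0 lower and medians of 0.46 and 0.41. The share of all kept genes called higher was 3.11% and 4.15%. The list was chosen with earlier results of these data known, so these counts are no independent result beside those shares. It also holds Igf1 and Igfals, which are on the IGF axis list too. Cish, a feedback inhibitor of the growth hormone receptor, had 154 counts at 12 weeks and 151 at 8 weeks, against 15 in the control, which are log2 ratios of 2.58 and 2.45. Socs2, of the same kind, had 518 and 378 against 184 counts (1.46 and 0.91). The transcription factors Onecut1 (2.40 and 2.31) and Cux2 (2.2 and 2.34), both higher in female than male mouse liver, were higher as well, whereas the receptor Ghr had 0.15 and 0.38 and Stat5b 0.14 and -0.09. Those of Ghr and Stat5b are smaller than 1.5-fold. Stat5a, named after its values were seen, had -0.20 and -0.76, and was lower at 8 weeks by a count ratio of 0.543 (0.399 to 0.735).

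Of the genes that FOXO1 and insulin govern, few were called at 2-fold against the control. All 14 listed genes were kept, with a median of 0.20 at each time. Against the control, 0 were called at 12 weeks and 1 was called higher at 8 weeks, beside 4.46% and 6.25% of all kept genes. These 2-fold counts are near the background. At 1.5-fold, 3 were higher and 1 lower at 12 weeks, beside 15.5% of all kept genes called. At 8 weeks 4 were higher and 1 lower, beside 18.6%. Between 12 and 8 weeks 2 of the 14 were called at 2-fold, Pdk4 as higher and Srebf1 as lower, beside 2.51%. The gene called at 2-fold against the control was Ppargc1a, a coactivator of gluconeogenesis, at 0.93 and 1.73 for 12 and 8 weeks. Pck1, a gluconeogenic enzyme and like Igfbp1 a FOXO1 target, was at 1449 CPM at 12 weeks and 1951 CPM at 8 weeks, against 1848 CPM in the control. G6pc, which releases free glucose, was at 374.0, 648.5 and 614.6 CPM, lowest at 12 weeks, where Igfbp1 was highest. Pdk4, a kinase that restrains glucose oxidation, had 0.98 at 12 weeks and -0.96 at 8 weeks against control, and 1.94 between 12 and 8 weeks. Srebf1, the insulin-driven regulator of lipogenesis, had -0.11 and 0.96, and -1.08 between 12 and 8 weeks. Foxo1 itself, named after its values were seen, had 0.84 and 0.70.

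**Figure D5:**
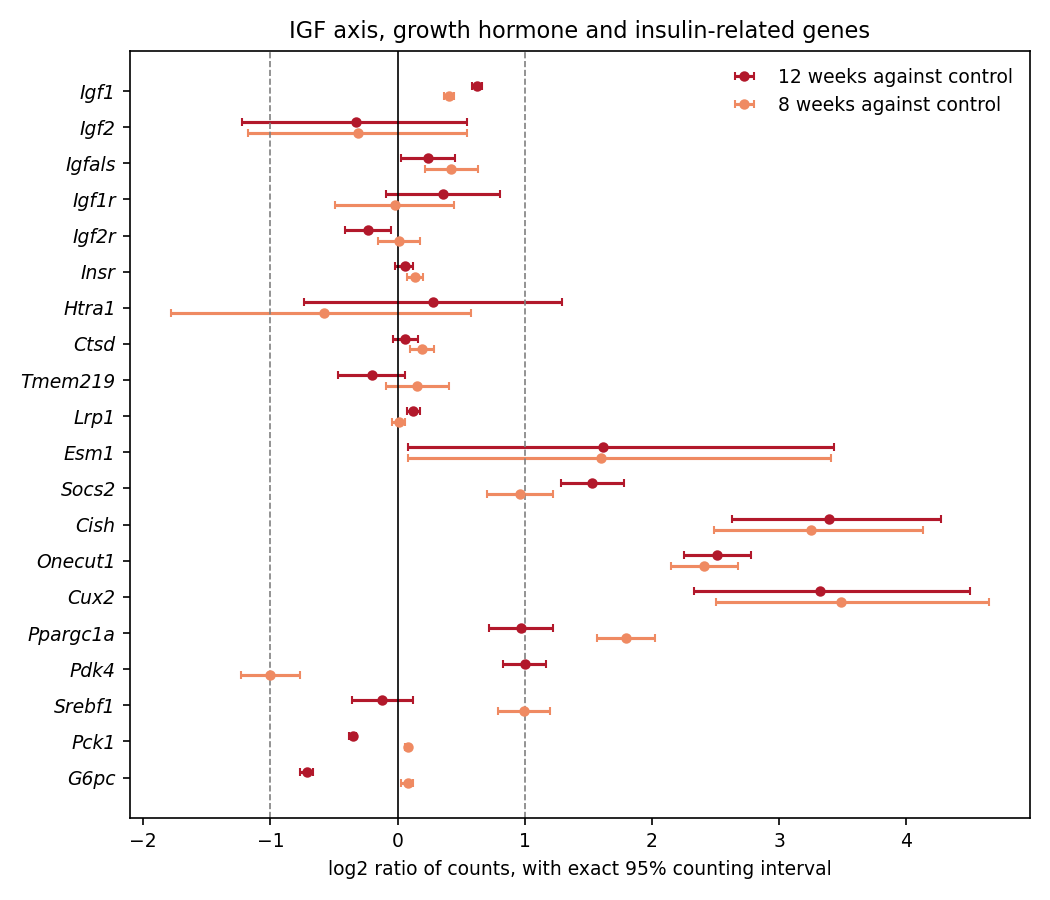
Log2 ratio of counts (x axis, with exact 95% counting intervals and dashed lines at 2-fold) for the kept genes of the IGF axis, the called genes of the growth hormone list and the named insulin-related genes (y axis), at 12 weeks and 8 weeks against control. Of the IGF axis genes, Esm1, with 15 and 16 counts against 5, lies past 2-fold on this scale without added CPM, and Cish, Onecut1 and Cux2 lie past the right dashed line in both libraries.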

How the data were processed

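Liver RNA libraries of 3 groups, 1 each, were read from the deposited tables. The authors deposited estimated counts per gene, not normalized, of which 70.2% to 71.5% of values above 0 were whole within 0.005. Per the submitters' processing notes, Cufflinks 2.2.1.0 and TopHat2 2.1.0 were used, in steps not described, and 2 builds, mm10 and mm9, are listed; the counting program is not given in the sources used here.

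Estimated counts were rounded and scaled by TMM (edgeR 4.0.16, R 4.3.3; factors 0.999, 1.005 and 0.997 for 12 weeks, 8 weeks and control). Genes at 1 CPM or more in at least 1 library were kept, and 1 CPM was added before log2 ratios, which understates changes of low genes. Calls are at 2-fold, with no test. Clopper-Pearson (ratios) and exact Poisson (levels) 95% intervals were computed with scipy 1.17.1. The ratio intervals and the calls, but not the level intervals, were tested on simulated counts. These held counting error alone, so the test is a check of the code and no measure of spread between animals. Motifs were searched in the RefSeq promoter table (GRCm38.p6), which held all 7 members. Besides all members, IGF axis ligands and receptors and called or kept members of the axis list were named, with up to 4 called genes, or else the 2 most abundant, of the other lists. Ghr, Stat5a, Stat5b, Foxo1, Pck1 and G6pc were named beyond this rule, and Trib1 among the results flagged for a closer look. Pappa, Pappa2, Stc1, Stc2, Igfbpl1 and Kazald1, of the axis list but neither kept nor called, were also named beyond it. The genes, lists and thresholds were chosen with earlier results of these data known. Alternatives were other pseudocounts, filters, scalings (DESeq2 1.42.0 among them), rounding, a 1.5-fold threshold and other gene lengths.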

Additional observations from a re-analysis of the deposited data

Results flagged for a closer look

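Of the 14 genes of the insulin and FOXO1 list, 4 were on opposite sides of the control at 12 and 8 weeks, each beyond its counting interval, and the other 10 were not; the difference between the times was not tested against any replicate. Against the control, Pdk4 had log2 ratios of 0.98 at 12 weeks and -0.96 at 8 weeks, a difference of 1.94. Trib1 had 0.44 and -0.17, a difference of 0.61. Pck1 had -0.35 and 0.08, a difference of -0.43, and G6pc had -0.72 and 0.08, a difference of -0.79. At 8 weeks against control, 40.2% of kept genes stood at or above Pck1 and 40.3% at or above G6pc. For Trib1, 32.9% stood at or under it. Offsets of this size at 8 weeks were thus common between the libraries, and high counts make their counting intervals narrow. Of the IGF binding proteins, Igfbp3 also had opposite signs, at -0.17 and 0.50, but its 12-week counting interval includes no change.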

How the results depend on the processing

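The log2 ratios of the 7 members kept their direction in all alternatives but 1 case: Igfbp2 between 12 and 8 weeks, at 0.01, ranged over -0.01 to 0.01 and was no longer above 0 in 3 of 10, the other scalings. None of the 210 values moved by more than the distance from the middle to the end of its counting interval, which is wide for low counts. At 8 weeks Igfbp2 ranged over -0.83 to -0.81 and Igfbp5 over 0.61 to 0.99, while Igfbp6, at 0.66, ranged over 0.17 to 3.24, and at 12 weeks, at 0.19, over 0.04 to 1.62, lowest with 5 CPM added and highest with 0. At 1.5-fold, 2 members were called at 12 weeks, 2 at 8 weeks and 1 between them, in place of 0. With no CPM added, 1486 genes of all were called at 12 weeks, 1799 at 8 weeks and 951 between the times; with 0.1 CPM added, 1358, 1656 and 848; with 5 CPM added, 259, 429 and 161; at 1.5-fold, 2261, 2709 and 1479; and with 0.5 CPM, 563 between the times. A smaller addition lets low genes pass by construction. In CPM without length, 5 of 7 members kept their place in the control. With the lengths of coding transcripts, chosen after seeing the data, all 7 kept theirs. No paired analysis was possible because each group has 1 library, and no library could be left out. Of the list counts, 35 of 330 changed by more than 1.5 times.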
